A study of Mus musculus with 25 samples.

Results

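Interferon-stimulated genes are the antiviral and immune genes that cells switch on when interferons reach them. The 45 genes described here were taken by symbol from a list of well-known members of that class, a rule that names no measured value, although earlier results of these data were known when the list was drawn up. All 45 were among the 35741 gene symbols in the table, and all 45 were among the 16206 genes that passed the filter on low counts and were tested. They were read in bone marrow neutrophils of mice that lacked Ptpn6, Ripk3, Mlkl and Casp8 in different combinations.

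The study measured messenger RNA in 25 libraries of cells collected where 68% and 78% Percoll layers meet, from bone marrow of C57BL/6J females 6 to 13 weeks old, none of them given an agent in the labels. Ripk3-/- and Mlkl-/- are losses in the whole animal, and the mark ∆PMN denotes deletion of Ptpn6 or Casp8 in neutrophils. The Cre line that drives ∆PMN deletion is not given in the sources used here. Groups of 3 libraries each were wild-type, Ripk3-/-, Ripk3-/- Ptpn6∆PMN, Mlkl-/- and Ripk3-/- Mlkl-/- Ptpn6∆PMN. Groups of 2 libraries each were Mlkl-/- Ptpn6∆PMN, Ripk3-/- Mlkl-/-, Casp8∆PMN Mlkl-/- Ptpn6∆PMN and Ripk3-/- Mlkl-/- Casp8∆PMN Ptpn6∆PMN. Casp8∆PMN Ptpn6∆PMN had 1 library, the only one labelled as inflamed. A further library carried labels that name different genotypes and entered no comparison. Ptpn6 was therefore always deleted on a background that also lacked Ripk3, Mlkl or both, or Casp8, and neutrophils lacking only Ptpn6 were not analysed here. The labels do not say which libraries came from separate mice, so p-values measure the spread between libraries, which may in part be technical.

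Type I interferons bind the receptor pair Ifnar1 and Ifnar2, and the kinases Jak1 and Tyk2 then phosphorylate Stat2. Phosphorylated Stat2 and Irf9 are subunits of the factor ISGF3, which binds interferon-stimulated response elements (ISRE) in promoters, whereas interferon gamma acts through gamma-activated sites (GAS). Ptpn6 encodes SHP-1, a tyrosine phosphatase that dampens signalling downstream of many receptors, Jak-linked ones among them. Ripk3 is a kinase that activates Mlkl, which breaks the plasma membrane in necroptosis, and caspase-8 holds that route in check. The interferon-stimulated gene Zbp1 links the 2 themes, because its product senses Z-form nucleic acids and engages Ripk3.

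Promoters were matched for 35 of the 45 genes in RefSeq on GRCm38.p6, and the 250 bases before the start of transcription were searched on both strands. The ISRE pattern was GAAA, any 2 bases (NN) and GAAA again, and the GAS pattern was TTCNNNGAA. Overlapping matches of the same pattern were counted separately, and the patterns were searched independently of each other. An ISRE match stood in 18 of the 35 genes (51.4%), against 936 of 27025 RefSeq genes (3.46%). A GAS match stood in 8 of the 35 (22.9%), against 2197 of the 27025 (8.13%). Of the 35 genes, 5 held both and 14 held neither. The promoters of 4 genes are printed, 5′ to 3′ on the strand of the gene, with the matches in capitals: those of Stat2, Oas1a and Irgm2, which changed in the comparisons described below, and that of Isg15, the class's namesake, which edgeR called in no comparison.

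Stat2 (chr10:128270248-128270497, + strand): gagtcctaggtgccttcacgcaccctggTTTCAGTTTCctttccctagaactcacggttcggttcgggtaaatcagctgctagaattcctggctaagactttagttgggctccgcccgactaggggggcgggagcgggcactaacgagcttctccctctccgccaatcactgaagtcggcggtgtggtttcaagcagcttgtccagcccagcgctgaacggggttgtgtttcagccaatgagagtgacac
Oas1a (chr5:120907526-120907775, - strand): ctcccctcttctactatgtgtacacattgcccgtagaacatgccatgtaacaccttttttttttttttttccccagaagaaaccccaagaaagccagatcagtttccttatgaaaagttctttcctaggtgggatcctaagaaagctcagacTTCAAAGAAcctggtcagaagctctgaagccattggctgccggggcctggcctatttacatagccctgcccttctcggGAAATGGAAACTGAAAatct
Irgm2 (chr11:58214727-58214976, + strand): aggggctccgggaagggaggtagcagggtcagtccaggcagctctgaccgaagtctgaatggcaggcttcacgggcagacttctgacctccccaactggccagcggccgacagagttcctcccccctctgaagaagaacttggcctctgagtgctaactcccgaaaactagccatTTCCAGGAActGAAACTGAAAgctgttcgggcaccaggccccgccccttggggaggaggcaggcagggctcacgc
Isg15 (chr4:156200819-156201068, - strand): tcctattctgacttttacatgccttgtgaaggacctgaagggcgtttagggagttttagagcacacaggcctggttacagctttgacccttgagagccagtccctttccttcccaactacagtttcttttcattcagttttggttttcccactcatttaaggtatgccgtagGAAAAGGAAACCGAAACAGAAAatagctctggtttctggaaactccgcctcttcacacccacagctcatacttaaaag

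The capitals mark an ISRE match on the opposite strand at -222 to -213 in Stat2, counted from the start of transcription. In Oas1a they mark a GAS match at -98 to -90 and a pair of overlapping ISRE matches from -20 to -5. In Irgm2 a GAS match at -75 to -67 and an ISRE match at -64 to -55 lay 2 bases apart. In Isg15 a run of 3 overlapping ISRE matches stretched from -78 to -57. A match describes the letters only, and no binding was measured.

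**Figure D1:**
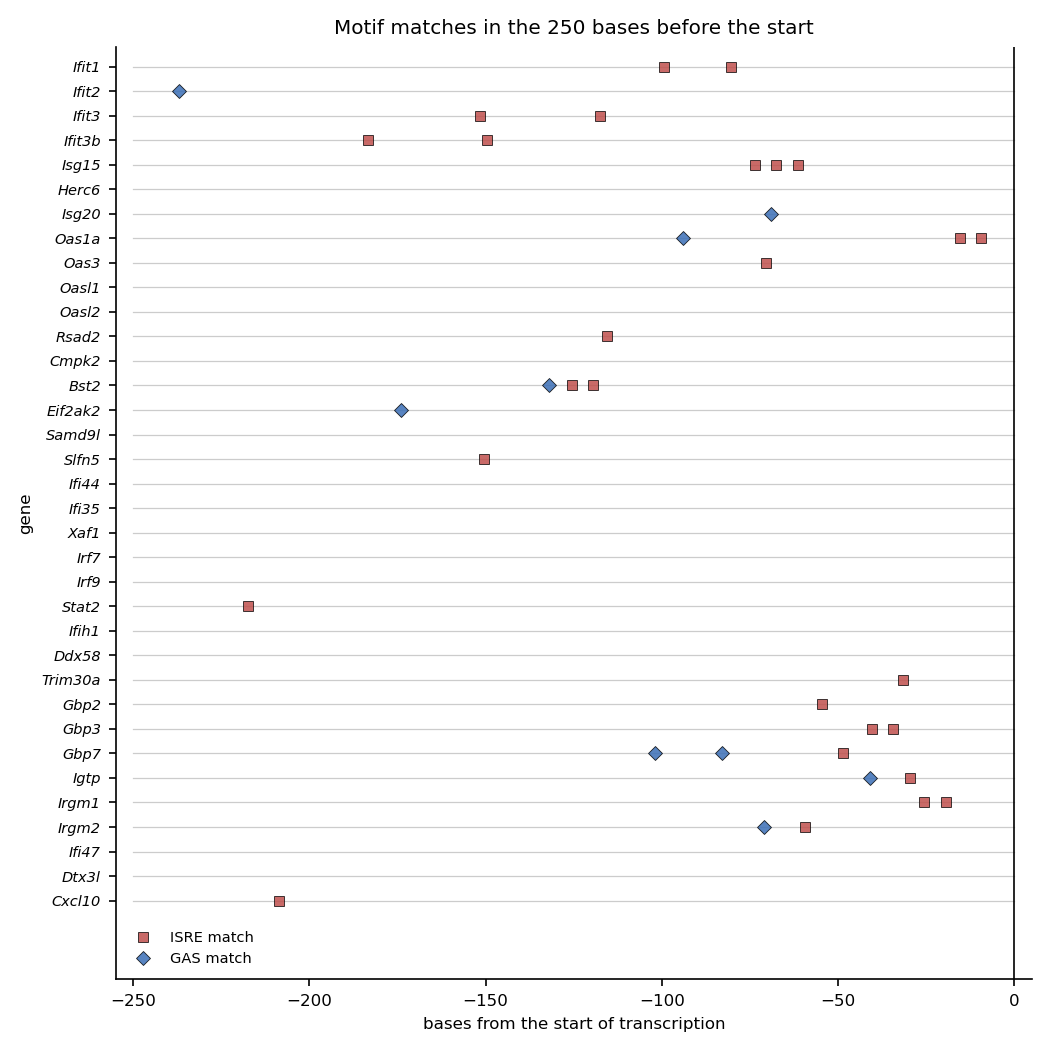
Positions of ISRE matches (squares) and GAS matches (diamonds) in the 250 bases before the start of transcription of the 35 genes with a RefSeq promoter, on an axis of bases from that start. The 18 genes with an ISRE match carry it at distances that differ widely, close to the start in Oas1a and more than 200 bases away in Stat2.

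Libraries were of even depth, from 21598063 to 23187557 estimated counts. Levels are given as CPM, counts scaled to a common library size after TMM adjustment. Ptpn6 ran from 120 to 314 CPM in the 13 libraries in which it was deleted and from 490 to 707 CPM in the 11 in which it was intact. Ripk3 was at 0 to 0.154 CPM in 13 Ripk3-/- libraries and at 2.51 to 10.5 CPM in the other 11. Among the latter it was at 10.5, 8.58 and 9.91 CPM in wild-type and lower in Mlkl-/-, at 4.78, 2.51 and 2.78 CPM. It was at 2.91 and 4.52 CPM in Mlkl-/- Ptpn6∆PMN and at 3.17 and 5.22 CPM in Casp8∆PMN Mlkl-/- Ptpn6∆PMN. Mlkl was at 1.85, 1.4 and 1.58 CPM in Ripk3-/- and at 4.85, 4.29 and 3.5 CPM in wild-type. The cause of these lower levels was not tested. The ranges of Mlkl (0.23 to 1.64 against 1.40 to 4.85 CPM) and Casp8 (16.3 to 23.5 against 21.3 to 37.9 CPM) overlapped between deleted and intact libraries. The 11 neutrophil markers summed to between 61900 and 142000 CPM in every library, and no list of markers of another cell type was wholly at 0. In such bulk libraries, fewer cells of a type and less RNA per cell cannot be told apart.

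In wild-type neutrophils the genes spanned a wide range of levels, compared here as CPM per kilobase of exon. Samd9l, a restriction factor linked to blood cell disorders, stood highest at 71.2 ± 5.23 CPM per kilobase (SD, n = 3). Rtp4 followed at 56.0 ± 10.1, Trim30a at 51.8 ± 3.06 and Oasl2 at 51.4 ± 5.61 CPM per kilobase, and these neighbours did not differ beyond their SDs. At the other end stood the chemokine Cxcl10 at 0.629, Mx2 at 0.283, the GTPase Iigp1 at 0.138 and Ifi44 at 0.0612 CPM per kilobase. Transcripts of all 45 genes were counted in each of the 3 wild-type libraries.

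The mean log2 CPM over the 45 genes summarised each library. It was 4.90, 5.17 and 5.09 in the wild-type libraries, 5.39, 5.31 and 4.94 in Ripk3-/- and 5.19, 5.35 and 4.99 in Mlkl-/-. It was 5.85 and 6.45 in Mlkl-/- Ptpn6∆PMN and 6.07 and 5.43 in Ripk3-/- Mlkl-/-, so all 4 of these libraries lay above every wild-type, Ripk3-/- and Mlkl-/- library. It was 5.45, 5.04 and 5.09 in Ripk3-/- Ptpn6∆PMN and 4.98, 5.09 and 5.76 in Ripk3-/- Mlkl-/- Ptpn6∆PMN. The groups with Casp8 and Ptpn6 deleted stood at 5.35 and 5.68 in Casp8∆PMN Mlkl-/- Ptpn6∆PMN and at 5.22 and 5.67 in Ripk3-/- Mlkl-/- Casp8∆PMN Ptpn6∆PMN. The pooled SD within groups was 0.29. Among the 9 groups of 2 or more libraries, 42 of the 45 genes had their highest mean in Mlkl-/- Ptpn6∆PMN. Rsad2 and Slfn5 had theirs in Ripk3-/- Mlkl-/-, and Mx2 had its in Ripk3-/-.

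**Figure D2:**
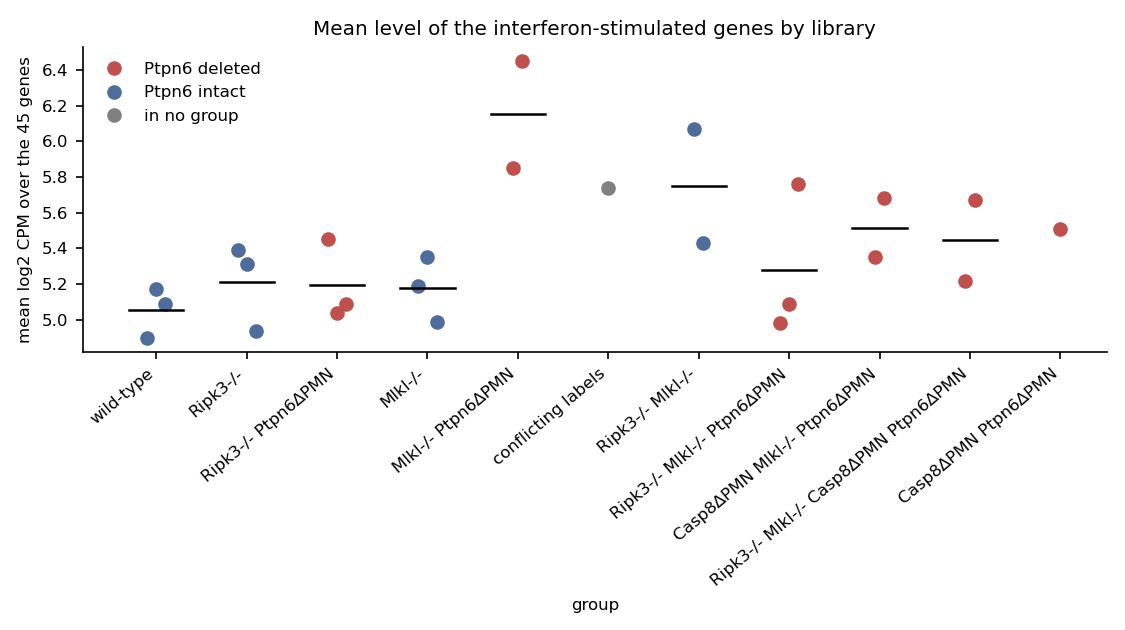
Mean log2 CPM over the 45 interferon-stimulated genes (vertical axis, cut to the range of the data) in each of the 25 libraries, by group; points are libraries, lines are group means, and colour gives the state of Ptpn6. The Mlkl-/- Ptpn6∆PMN libraries, at 5.85 and 6.45, lie above all 3 Mlkl-/- libraries, and the 3 Ripk3-/- Mlkl-/- Ptpn6∆PMN libraries spread from 4.98 to 5.76.

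**Figure D3:**
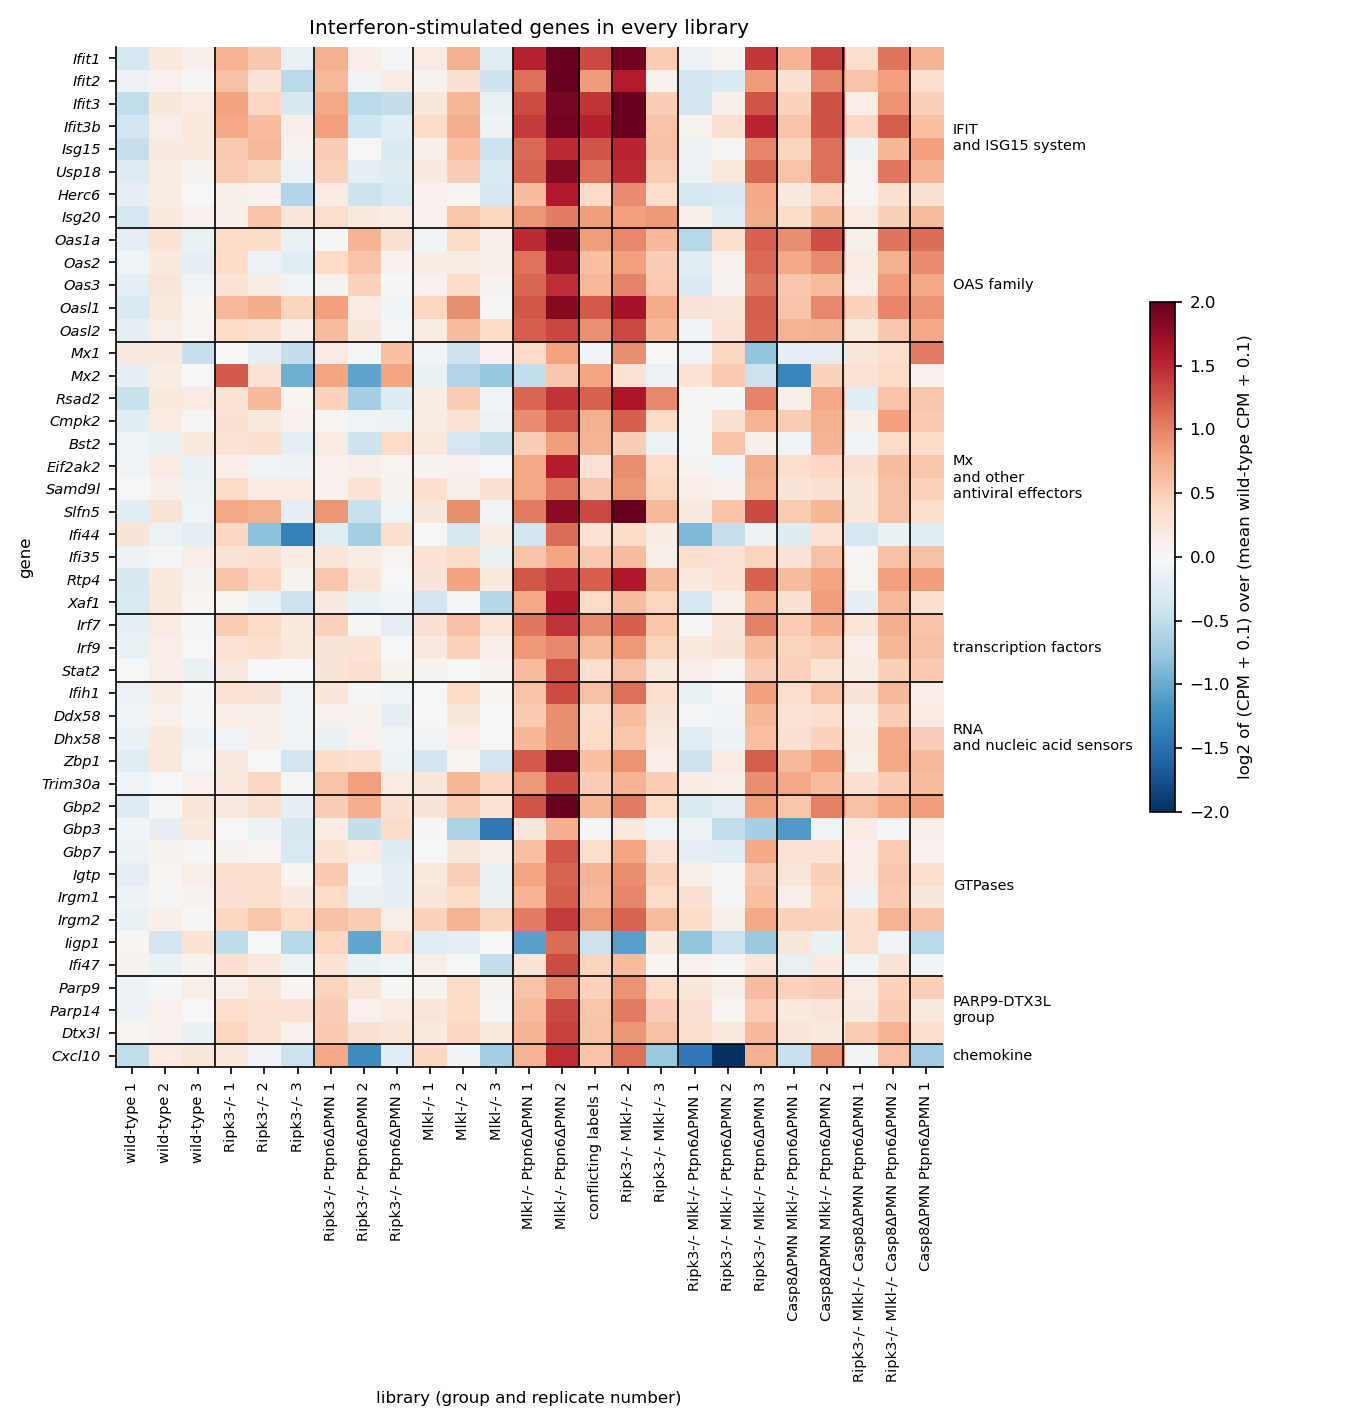
Heat map of log2 of (CPM + 0.1) over (mean wild-type CPM + 0.1) for the 45 genes (rows, grouped by role) in the 25 libraries (columns); red is above and blue below the wild-type mean, and colours saturate at 2 and -2. Red columns stand at Mlkl-/- Ptpn6∆PMN replicate 2, which held the highest value of 37 genes, and at Ripk3-/- Mlkl-/- replicate 2, which held that of 6.

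The question of whether Ptpn6 restrains these genes when necroptosis is blocked was first asked in cells that lack Mlkl. Deleting Ptpn6 in Mlkl-/- neutrophils raised 10 of the 45 genes at an adjusted p under 0.05 (edgeR quasi-likelihood F test, Benjamini-Hochberg over all 16206 genes), while 0.987% of all genes were called higher. Before adjustment 41 of the 45 had a p under 0.05, against 17.5% of all genes, Cxcl10, Ifi44, Iigp1 and Mx2 being the other 4. The estimated change lay above 0 for all 45 genes, with a median log2 change of 0.89 and a range of 0.51 to 1.84, against a median of -0.04 and 45.8% above 0 over all genes tested. The 2 deleted libraries lay above all 3 Mlkl-/- libraries for 42 of the 45 genes, against groups that did not overlap for 35.7% of all genes. The exceptions were Ifi44, Iigp1 and Mx2, all of low level.

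Among the transcription factors, Stat2 (chr10:128270559-128292849), the ISGF3 subunit that carries its transactivation domain, stood at 105 and 163 CPM in Mlkl-/- Ptpn6∆PMN and at 71.5, 68.9 and 71.6 CPM in Mlkl-/-. The groups did not overlap, and Stat2 rose 1.90-fold (log2 0.92, SE 0.17, edgeR adjusted p = 0.0236). Irf9, the DNA-binding partner of Stat2, was at 239 and 254 CPM against 148, 180 and 142 CPM. These did not overlap either, but the log2 change of 0.65 (SE 0.17) missed the threshold with an edgeR adjusted p of 0.0527. Irf7, which amplifies interferon production and is itself induced by interferon, was at 230 and 302 CPM against 136, 166 and 131 CPM, a log2 difference of 0.89 (SE 0.25, edgeR adjusted p = 0.0775).

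The 2'-5'-oligoadenylate synthetases sense double-stranded RNA and make the messenger that activates RNase L. Oas1a (chr5:120896256-120907521) stood at 161 and 211 CPM after deletion and at 54.6, 73.6 and 61.9 CPM in Mlkl-/-. It rose 2.93-fold (log2 1.55, SE 0.35, edgeR adjusted p = 0.0380). Oas2 (chr5:120730333-120749853) stood at 432 and 684 CPM against 227, 226 and 222 CPM and rose 2.48-fold (log2 1.31, SE 0.30, edgeR adjusted p = 0.0390). Both deleted libraries were high for both genes, and edgeR did not call the other 3 of the 5 family members, Oas3, Oasl1 and Oasl2, whereas DESeq2 called all 5. The median log2 change of the 5 was 1.14, with a range of 0.88 to 1.55. Oas1a shares 40.87% of its 100-base exon windows with Oas1g, so reads could be split between them and its own value is uncertain.

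Zbp1 (chr2:173206612-173218923) showed the largest change of the called genes. Its level was 80.1 and 129 CPM in Mlkl-/- Ptpn6∆PMN and 26.2, 35.1 and 26.1 CPM in Mlkl-/-, with no overlap, a 3.59-fold rise (log2 1.84, SE 0.35, edgeR adjusted p = 0.0253). Zbp1 was grouped with Ifih1, Ddx58 and Dhx58 of the RIG-I-like receptor family and with Trim30a, which dampens signalling from such sensors. These other 4 had log2 differences of 0.67 to 0.84 and were not called by edgeR, while DESeq2 called 4 of the 5 genes of the group. The Mlkl-/- cells kept Ripk3, at lower transcript levels than wild-type. In them, transcripts of the sensor that engages Ripk3 were higher when Ptpn6 was deleted.

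Of the 12 Mx and other antiviral effectors, edgeR called 3 and DESeq2 5. Eif2ak2 (chr17:78852564-78882573), which encodes PKR, the kinase that shuts down translation on double-stranded RNA, stood at 63.2 and 110 CPM against 38.6, 39.3 and 37.0 CPM. It rose 2.26-fold (log2 1.18, SE 0.22, edgeR adjusted p = 0.0236). Xaf1 (chr11:72301629-72313733), a binding partner of the apoptosis inhibitor XIAP, stood at 26.5 and 46.3 CPM against 12.0, 15.1 and 10.4 CPM and rose 2.92-fold (edgeR adjusted p = 0.0253). Cmpk2 (chr12:26469204-26479837), a mitochondrial nucleotide kinase, stood at 250 and 302 CPM against 143, 158 and 119 CPM and rose 1.97-fold (edgeR adjusted p = 0.0429). Neither deleted library overlapped the Mlkl-/- libraries for any of the 3 genes. Rsad2, which encodes the antiviral enzyme viperin and neighbours Cmpk2, was at 336 and 406 CPM against 168, 215 and 145 CPM and was not called by edgeR.

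Some of the 8 interferon-inducible GTPases attack vacuoles that hold pathogens. Gbp2 (chr3:142620602-142638008) was the only one of the 8 to pass the edgeR test, whereas DESeq2 called 7 of the 8. It stood at 90.0 and 153 CPM against 45.0, 53.5 and 45.3 CPM and rose 2.53-fold (log2 1.34, SE 0.29, edgeR adjusted p = 0.0330). Over the 8 GTPases the median log2 change was 0.81, and it ranged from 0.59 to 1.34. In the PARP9-DTX3L group, which acts on ubiquitin and ADP-ribose marks in the interferon and DNA damage responses, edgeR called 2 of 3 and DESeq2 all 3. Dtx3l (chr16:35926511-35939151) stood at 111 and 179 CPM against 79.3, 92.8 and 79.9 CPM and rose 1.73-fold (edgeR adjusted p = 0.0343). Parp14 (chr16:35832874-35871544) stood at 151 and 243 CPM against 115, 126 and 98.6 CPM and rose 1.74-fold (edgeR adjusted p = 0.0444).

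The IFIT and ISG15 system had the largest median of the roles with several genes, yet edgeR called 0 of its 8 genes, all 8 with an unadjusted p under 0.05, and DESeq2 called 5. It comprises the IFIT proteins, which bind foreign RNA, the ubiquitin-like Isg15 with its ligase Herc6 and its protease Usp18, and the exonuclease Isg20. Their median log2 change was 1.33, with a range of 0.59 to 1.84. Ifit1 stood at 84.4 and 167 CPM against 32.7, 47.9 and 24.9 CPM, a log2 difference of 1.84 with an SE of 0.46 and an edgeR adjusted p of 0.0518. Ifit2 was at 26.9 and 56.1 CPM against 13.1, 15.5 and 9.32 CPM (log2 1.72, SE 0.43, edgeR adjusted p = 0.0503). Isg15 was at 38.6 and 50.0 CPM against 19.0, 26.8 and 13.0 CPM. The groups did not overlap for any of these 3 genes. Within Mlkl-/- their libraries spread more than those of Stat2 or Eif2ak2 did. Within Mlkl-/- Ptpn6∆PMN this did not hold for Isg15 (44.3 ± 8.06 CPM, SD, n = 2) beside Stat2 (134 ± 41.4 CPM, SD, n = 2). Ifit3 and Ifit3b share 31.65% and 27.41% of their exon windows with each other, so their separate levels are uncertain.

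The 3 factor genes were also followed through the remaining groups. Stat2 was at 67.8, 74.5 and 62.4 CPM in wild-type, 76.9, 68.7 and 68.1 in Ripk3-/-, 81.5, 86.3 and 71.6 in Ripk3-/- Ptpn6∆PMN, 102 and 79.1 in Ripk3-/- Mlkl-/- and 73.0, 70.6 and 96.4 in Ripk3-/- Mlkl-/- Ptpn6∆PMN. With Casp8 deleted it was at 94.0 and 82.9 CPM in Casp8∆PMN Mlkl-/- Ptpn6∆PMN and 75.6 and 95.3 in Ripk3-/- Mlkl-/- Casp8∆PMN Ptpn6∆PMN. No library outside Mlkl-/- Ptpn6∆PMN reached 105 CPM, the lower of its Stat2 values. Irf7 was at 98.8, 123 and 109 CPM in wild-type, 157, 145 and 126 in Ripk3-/-, 151, 112 and 96.5 in Ripk3-/- Ptpn6∆PMN, 254 and 162 in Ripk3-/- Mlkl-/- and 112, 130 and 221 in Ripk3-/- Mlkl-/- Ptpn6∆PMN. Irf9 was at 156, 158 and 130 CPM in Ripk3-/- Ptpn6∆PMN, 238 and 177 in Ripk3-/- Mlkl-/- and 149, 157 and 200 in Ripk3-/- Mlkl-/- Ptpn6∆PMN. For Irf7 and Irf9, Ripk3-/- Mlkl-/- replicate 2 came close to the Mlkl-/- Ptpn6∆PMN libraries or into their range. With Casp8 deleted, Irf7 was at 157 and 182 CPM in Casp8∆PMN Mlkl-/- Ptpn6∆PMN and at 131 and 182 in Ripk3-/- Mlkl-/- Casp8∆PMN Ptpn6∆PMN, and Irf9 was at 177 and 186 and at 144 and 208 CPM.

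Genes with an ISRE match in the promoter window had a median log2 change of 1.08 on Ptpn6 deletion in Mlkl-/- (18 genes, 3 called), and genes without one had 0.88 (17 genes, 4 called). Genes with and without a GAS match had medians of 0.84 (8 genes) and 0.99 (27 genes). The ranges overlapped throughout.

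**Figure D4:**
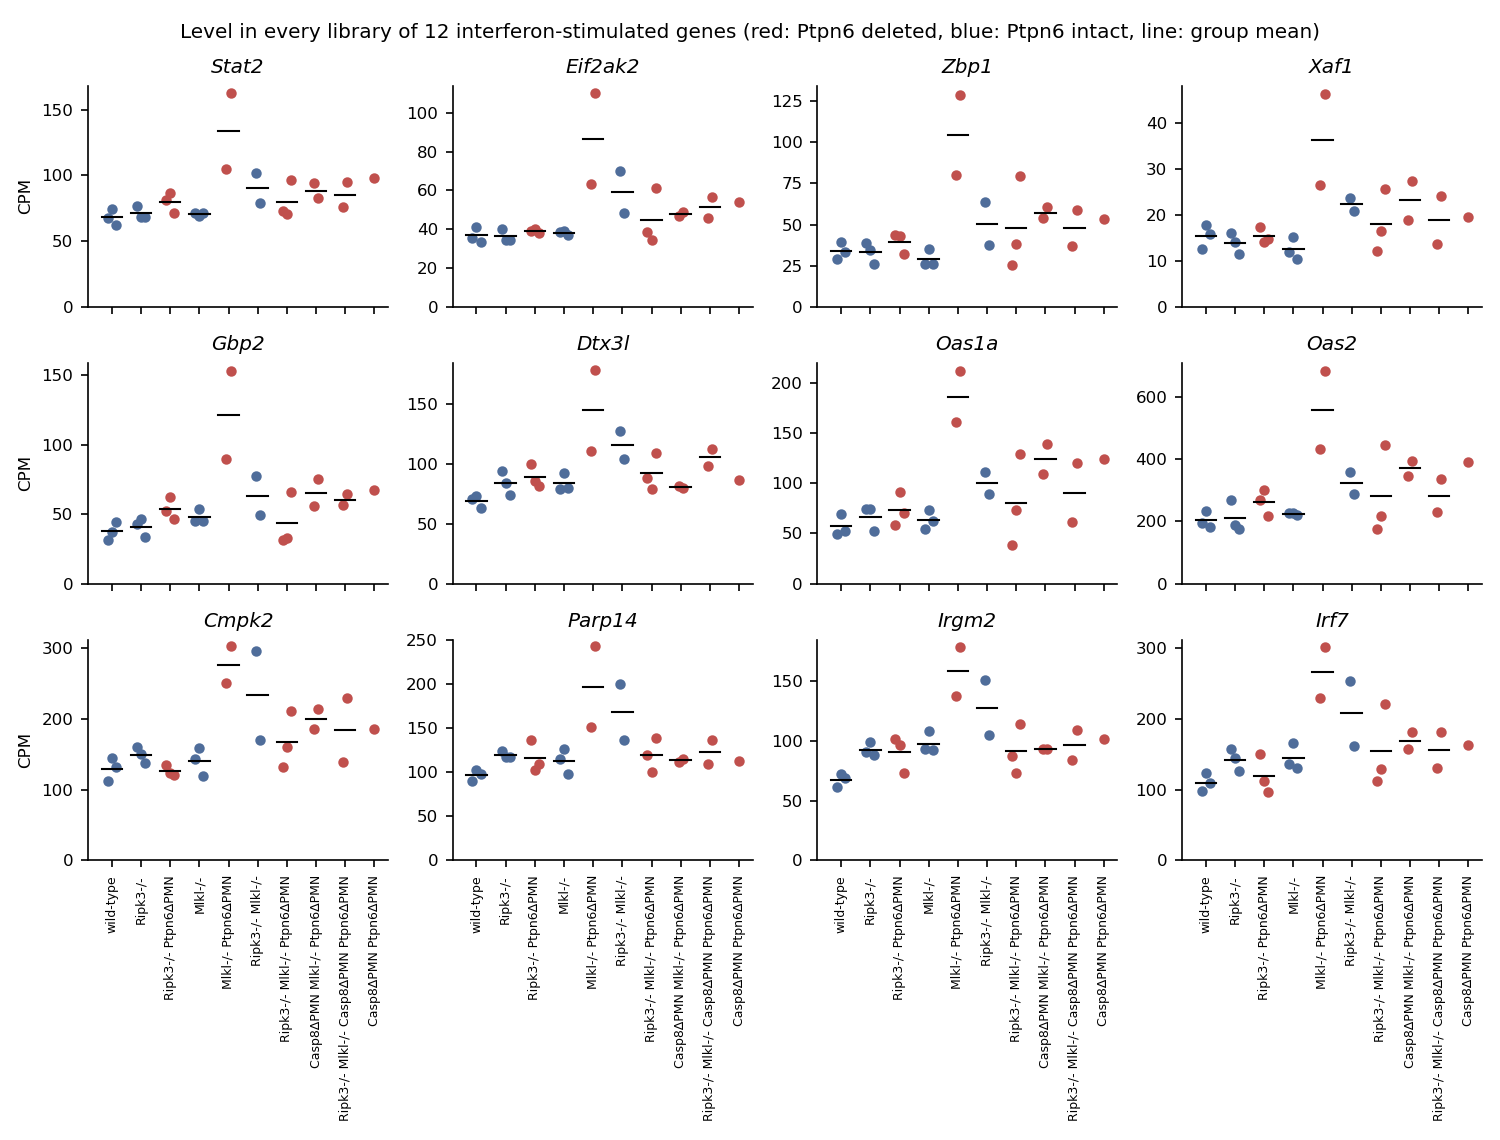
CPM in each library of the 10 genes called on Ptpn6 deletion in Mlkl-/- and of Irgm2 and Irf7, by group; points are libraries, lines are group means, every vertical axis starts at 0, and the library with conflicting labels is not drawn. In each of the 12 panels both Mlkl-/- Ptpn6∆PMN libraries lie above all 3 Mlkl-/- libraries, with replicate 2 the higher of the pair.

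These calls depended on few libraries. Mlkl-/- Ptpn6∆PMN replicate 2 was above replicate 1 for 45 of 45 genes, with a median log2 gap of 0.53, while 52.8% of all genes were higher in replicate 2. Without replicate 2 the median log2 change over the 45 genes was 0.67, and without replicate 1 it was 1.21, each with 1 library left in the group. Leaving out Mlkl-/- replicate 1, 2 or 3 left 0 of the 45 called, beside 0.192%, 0.0247% and 0.0371% of all genes. The full fit called 244 of the 16206 genes, so calls fell over all genes as well. The changes of the 10 genes stayed above 0 in all of these fits, Stat2 between 0.57 and 1.21 and Zbp1 between 1.46 and 2.15, but the highest edgeR adjusted p reached was 0.448. Without a filter on low counts edgeR called 21 of the 45 and 1.31% of all genes, and DESeq2 called 32 of the 45 and 4.72% of all genes.

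Cell type markers also moved in this comparison. The 11 neutrophil markers summed to 126000 to 142000 CPM in Mlkl-/- Ptpn6∆PMN against 83300 to 97400 CPM in Mlkl-/-, basophil and mast cell markers to 2190 to 2270 against 997 to 1580 CPM, and B cell markers to 417 to 453 against 617 to 969 CPM. Markers of plasmacytoid dendritic cells, the cells best known for making type I interferon, summed to 226 to 229 against 285 to 339 CPM, with 7 of 8 listed markers tested. Monocyte markers overlapped, at 1800 to 2100 against 1680 to 2170 CPM. Those of T and NK cells overlapped in their sums, at 34.6 to 37.8 against 36.6 to 58.1 CPM, but 0 of 9 genes had an estimate above 0 (median log2 change -0.56). Macrophage markers, at 54.6 to 90.8 against 73.0 to 178 CPM, overlapped in their sums, and 0 of their 7 genes had an estimate above 0 (median log2 change -1.19). The part of these shifts in the result was not tested.

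In Ripk3-/- neutrophils, deleting Ptpn6 gave 0 called genes of the 45. None had an unadjusted p under 0.05 in edgeR, against 5.5% of all genes, and DESeq2 called 0. Over all genes, edgeR called 0.0185% and DESeq2 0.234%. The median log2 change was -0.04, with a range of -0.43 to 0.47, and 19 of the 45 lay above 0. The groups did not overlap for 2 of the 45 genes, against 9.22% of all genes. Gbp2 was one of those: it stood at 52.7, 62.5 and 46.4 CPM in Ripk3-/- Ptpn6∆PMN and at 42.8, 46.4 and 33.7 CPM in Ripk3-/-. Its groups touched only at 46.4 CPM as rounded, and its log2 difference was 0.39 (SE 0.26, edgeR adjusted p = 1). Trim30a, which dampens signalling from nucleic acid sensors, was at 315, 377 and 238 CPM against 243, 285 and 208 CPM (log2 0.34, SE 0.20, edgeR adjusted p = 1). Mx1 had a log2 difference of 0.47 (SE 0.30, edgeR adjusted p = 1). Zbp1 was at 43.8, 42.8 and 31.8 CPM against 38.7, 34.3 and 26.1 CPM. For Trim30a and Zbp1 the groups overlapped. Rsad2 had the lowest log2 difference, -0.43 (SE 0.32, edgeR adjusted p = 1), and was at 208, 95.5 and 126 CPM against 183, 237 and 157 CPM.

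With both Ripk3 and Mlkl absent, the estimates for Ptpn6 deletion lay mostly below 0. Of the 45 genes 0 were called by edgeR and 0 by DESeq2, beside 0.00617% and 0.0247% of all genes. In edgeR 5 of the 45 had an unadjusted p under 0.05, against 5.12% of all genes. The median log2 change was -0.47, with a range of -1.05 to 0.11, against 0.03 over all genes, and 2 of the 45 lay above 0. The groups did not overlap for 3 of the 45, against 13.4% of all genes. Isg20 was one of these, at 35.9, 28.9 and 56.1 CPM in Ripk3-/- Mlkl-/- Ptpn6∆PMN and 59.3 and 61.4 CPM in Ripk3-/- Mlkl-/- (log2 -0.58, SE 0.22, edgeR adjusted p = 0.846). Rsad2 was at 154, 149 and 300 CPM against 463 and 294 CPM, which overlap (log2 -0.91, SE 0.35, edgeR adjusted p = 0.846). Irgm2 (log2 -0.49, SE 0.19) and Parp14 (log2 -0.50, SE 0.19) had the same edgeR adjusted p of 0.846. By role, the median log2 change was -0.76 for the IFIT and ISG15 system, -0.38 for the OAS family and -0.30 for the transcription factors.

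Single libraries moved these values as well. Ripk3-/- Mlkl-/- replicate 2 exceeded replicate 3 for 43 of the 45 genes, and Ripk3-/- Mlkl-/- Ptpn6∆PMN replicate 3 was the highest of its group for 40. For Ifit1 the libraries of Ripk3-/- Mlkl-/- stood at 111 and 41.5 CPM and those with Ptpn6 deleted at 26.8, 30.4 and 77.9 CPM, so each group held 1 high library. Without Ripk3-/- Mlkl-/- replicate 2 the median log2 change over the 45 was -0.06. Erythroid markers summed to 2370 to 4830 CPM with Ptpn6 deleted against 4860 to 10300 CPM in Ripk3-/- Mlkl-/-, with 0 of 9 above 0 and a median log2 change of -1.23. The 7 macrophage markers had a median of -1.42 with 0 above 0, and 11 of 12 B cell markers lay above 0 with a median of 0.56. The part of these lists in the result was not tested.

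**Figure D5:**
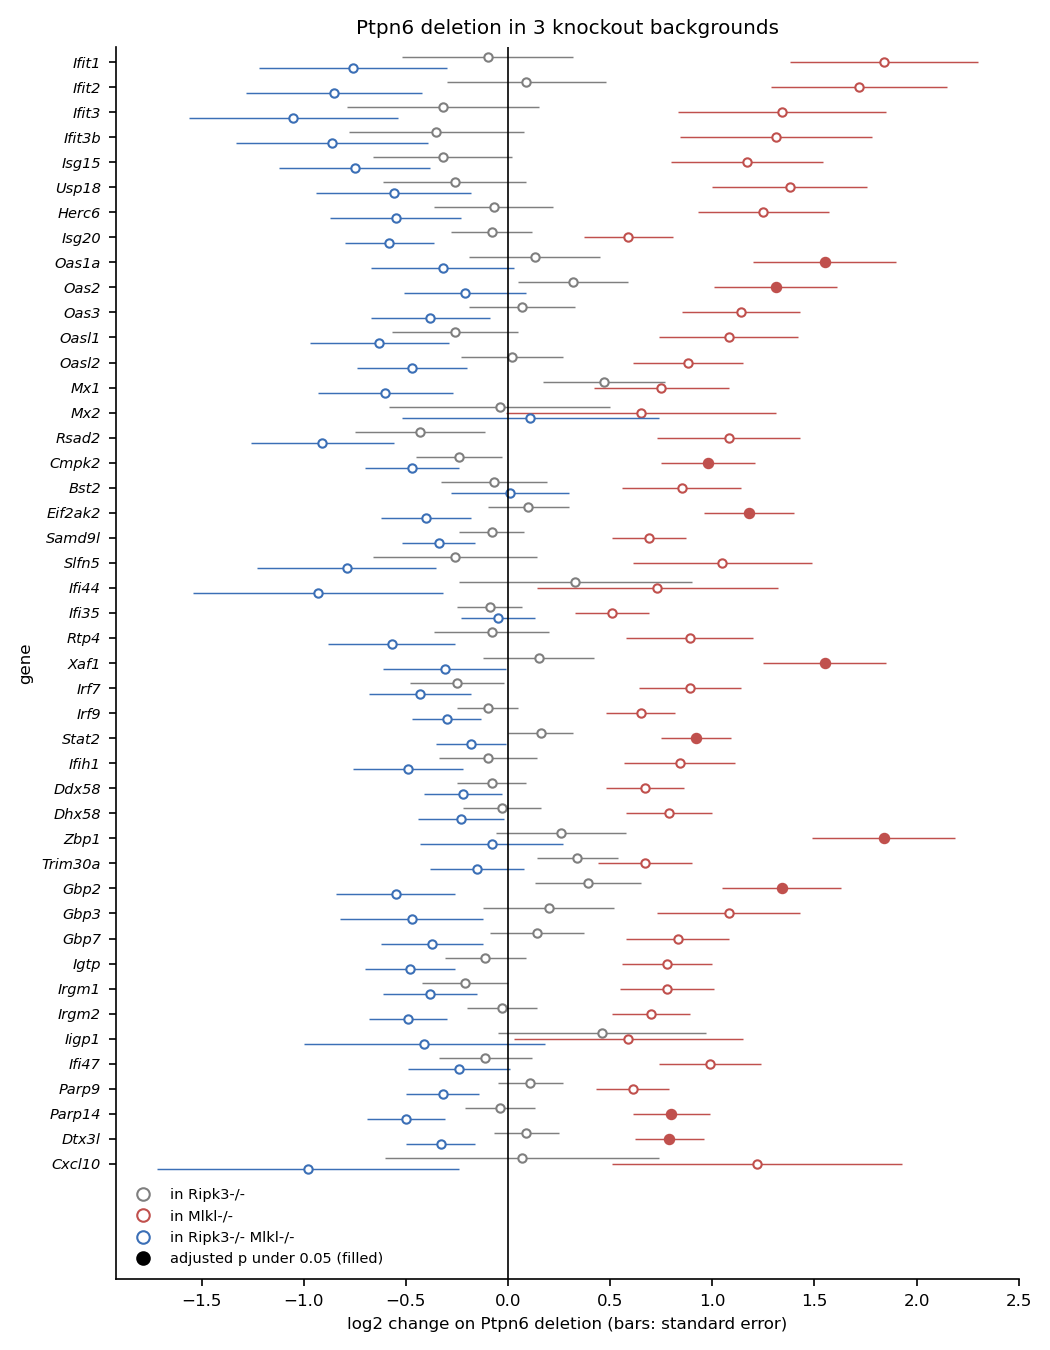
Log2 change on Ptpn6 deletion (horizontal axis, points, with standard errors as bars) of the 45 genes (vertical axis) in Ripk3-/- (grey), Mlkl-/- (red) and Ripk3-/- Mlkl-/- (blue) neutrophils; filled points passed an adjusted p under 0.05. All 45 red points lie above 0 and 10 are filled, grey points scatter around 0, and 43 of 45 blue points lie below 0.

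Whether the Ptpn6 effect in Mlkl-null cells depended on Ripk3 was tested as the difference between these 2 changes. All 45 differences lay below 0, with a median log2 value of -1.35 and a range of -2.60 to -0.54, against a median of 0.07 over all genes. Cell type markers shifted in the same test. Above 0 lay 12 of 12 B cell markers (median 1.37), 0 of 9 erythroid (-1.18), 0 of 11 neutrophil (-0.59) and 1 of 7 monocyte markers (-0.69). The B cell markers summed to 1850, 1320 and 417 CPM in replicates 1, 2 and 3 of Ripk3-/- Mlkl-/- Ptpn6∆PMN, and to 417 and 453 CPM in Mlkl-/- Ptpn6∆PMN. The part of these lists in the result was not tested. By edgeR 0 of the 45 passed at the adjusted threshold, as did 0% of all genes, while 41 of the 45 had an unadjusted p under 0.05, against 10.9% of all genes. DESeq2 called 17, beside 0.376% of all genes. The differences of Eif2ak2 (-1.58, SE 0.31), Parp14 (-1.30, SE 0.27), Gbp2 (-1.89, SE 0.41) and Dtx3l (-1.12, SE 0.24) each had an edgeR adjusted p of 0.185. The 4 groups of this test hold 10 libraries, and without Ripk3-/- Mlkl-/- Ptpn6∆PMN replicate 3 edgeR called 36 of the 45 and 3.44% of all genes, whereas without Ripk3-/- Mlkl-/- replicate 3 it called 3 and 0.089% of all genes.

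An F test of any difference between the 3 backgrounds called 0 of the 45 by edgeR and 0% of all genes, with 39 of the 45 at an unadjusted p under 0.05 against 6.5% of all genes. DESeq2 called 11, beside 0.197% of all genes. Eif2ak2, Cmpk2, Parp14 and Stat2, the genes with the smallest p among the 45, had an adjusted p of 0.548 in edgeR. Averaged over the 3 backgrounds, Ptpn6 deletion gave 0 called genes of the 45 in edgeR, beside 1.55% of all genes. Of the 45, 8 had an unadjusted p below 0.05, against 15.5% of all genes, and DESeq2 called 1, beside 4.13% of all genes. Zbp1 had the smallest adjusted p of the averaged effect, 0.0897 in edgeR, with a log2 change of 0.67 (SE 0.20), followed by Stat2 (0.30, SE 0.10, edgeR adjusted p = 0.113), Oas2 and Xaf1. The median of the averaged effect was 0.15. The average joins a median of 0.89 in Mlkl-/- with -0.04 in Ripk3-/- and -0.47 in Ripk3-/- Mlkl-/-.

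By edgeR, 0 of the 45 genes were called after loss of Ripk3 alone or of Mlkl alone with Ptpn6 intact. In Ripk3-/- against wild-type, edgeR called 0 of the 45 and 0.228% of all genes, and DESeq2 called 0, beside 0.611%. Of the 45, 1 had an unadjusted edgeR p under 0.05, against 6.86% of all genes. The median log2 change was 0.21, and groups did not overlap for 9 of the 45, against 19.4% of all genes. In Mlkl-/- against wild-type, edgeR called 0 of the 45 and 1.16% of all genes, and DESeq2 called 1, beside 4.95% of all genes. An unadjusted edgeR p under 0.05 was reached by 2 of the 45, against 19.4% of all genes. The median was 0.17, and groups did not overlap for 8 of the 45, against 31.3% of all genes. The genes closest to the threshold included the GTPase Irgm2, at 61.5, 72.4 and 69.1 CPM in wild-type, 90.7, 99.2 and 88.4 CPM in Ripk3-/- and 93.0, 108 and 92.5 CPM in Mlkl-/-. Wild-type lay below both knockouts for Irgm2, with log2 differences of 0.46 (SE 0.17, edgeR adjusted p = 0.498) and 0.53 (SE 0.17, edgeR adjusted p = 0.118). Irf9, which lies 0.175 Mb from Ripk3 on chromosome 14, was at 159, 166 and 152 CPM in Ripk3-/- and 118, 144 and 130 CPM in wild-type (log2 0.28, SE 0.15, edgeR adjusted p = 0.788). The next genes in Ripk3-/- were Oasl1 (log2 0.62, SE 0.31) and Parp14 (log2 0.30, SE 0.17), with edgeR adjusted p of 0.748 and 0.843. In Mlkl-/- they were Trim30a (log2 0.45, SE 0.21, edgeR adjusted p = 0.243), Isg20 and Gbp3, whose differences were 0.37 and -0.57.

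Joint loss of Ripk3 and Mlkl raised 2 of the 45 genes over wild-type in edgeR, beside 0.784% of all genes called higher. Irgm2 (chr11:58199618-58222782) stood at 151 and 105 CPM in Ripk3-/- Mlkl-/- against 61.5, 72.4 and 69.1 CPM and rose 1.90-fold (log2 0.92, SE 0.19, edgeR adjusted p = 0.0206). Dtx3l stood at 128 and 104 CPM against 71.1, 73.6 and 63.6 CPM and rose 1.68-fold (log2 0.74, SE 0.17, edgeR adjusted p = 0.0454). For both genes the 2 libraries lay above all wild-type libraries. Parp14 and Irf9 followed with edgeR adjusted p of 0.0513 and 0.0595 and log2 differences of 0.79 and 0.67.

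Over the 45 genes, 44 estimates in Ripk3-/- Mlkl-/- lay above wild-type, with a median log2 change of 0.71 and a range of -0.34 to 1.64, against a median of -0.03 over all genes. Groups did not overlap for 35 of the 45, against 40.2% of all genes, and 34 had an unadjusted p under 0.05, against 14.3% of all genes. DESeq2 called 15 of the 45 and 2.76% of all genes. The IFIT and ISG15 system had a median of 1.11, the OAS family 0.81 and the GTPases 0.64, with 0 of the OAS family and 0 of the IFIT and ISG15 system called by edgeR and 2 of each by DESeq2. Slfn5, of the Schlafen family, was at 284 and 102 CPM against 56.5, 77.8 and 61.7 CPM, so that replicate 2 carried most of the difference between means. Without replicate 2 the median over the 45 genes was 0.43 and without replicate 3 it was 0.95, with 0 and 6 of the 45 called by edgeR, beside 0.113% and 0.505% of all genes. Erythroid markers summed to 4860 to 10300 CPM in Ripk3-/- Mlkl-/- against 2600 to 5820 CPM in wild-type, ranges that overlap, with 9 of 9 above 0. Basophil and mast cell markers summed to 1170 to 1180 against 1240 to 1310 CPM, with a median log2 change of -1.75 and 2 of 7 called by edgeR. All 7 macrophage markers lay above 0 (median 0.96, 1 called), and 1 of 7 monocyte markers and 1 of 4 conventional dendritic cell markers were called. The part of these lists in the result was not tested.

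The steps from each single knockout to the double knockout gave no calls. Adding Ripk3 loss to Mlkl-/- gave 0 called of the 45 in edgeR and in DESeq2, beside 0.00617% and 0.0185% of all genes. In edgeR 26 of the 45 had an unadjusted p under 0.05, against 3.13% of all genes. Groups did not overlap for 21 of the 45, against 15.5% of all genes, and the median log2 change was 0.58. The smallest p values were those of Cmpk2 (log2 0.73), Rsad2 (1.10), Parp14 (0.58) and Eif2ak2 (0.63), each with an edgeR adjusted p of 1. Adding Mlkl loss to Ripk3-/- gave 0 called of the 45 in edgeR and in DESeq2, beside 0% and 0.00617% of all genes. Again 26 had an unadjusted edgeR p under 0.05, against 3.68% of all genes. Groups did not overlap for 29 of the 45, against 25% of all genes, and the median was 0.61. Here the smallest were those of Eif2ak2 (0.70), Parp9 (0.52), Cmpk2 (0.64) and Oasl2 (0.76), each with an edgeR adjusted p of 0.974. Both steps use the same Ripk3-/- Mlkl-/- libraries, and without replicate 2 of that group their medians were 0.22 and 0.19. Cell type markers shifted as well. On Ripk3 loss in Mlkl-/-, 9 of 9 T and NK cell markers lay above 0 (median 0.66). So did 9 of 9 erythroid (0.67) and 1 of 7 basophil and mast cell markers (-0.9). On Mlkl loss in Ripk3-/-, 9 of 9 erythroid (0.59), 1 of 7 basophil and mast cell (-1.53) and 1 of 12 B cell markers (-0.48) did. The part of these lists in the result was not tested.

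Ripk3 loss was also compared among cells with Ptpn6 deleted, against the same 2 Mlkl-/- Ptpn6∆PMN libraries that carried the Ptpn6 effect above. Ripk3 loss in Mlkl-/- Ptpn6∆PMN gave 44 of 45 estimates below 0, a median log2 change of -0.77 and a range of -1.68 to 0.07, against a median of 0.06 over all genes. By edgeR 0 of the 45 were called, beside 0.0185% of all genes, while 38 had an unadjusted p under 0.05 against 26.1% of all genes, and DESeq2 called 26, beside 9.63% of all genes. Groups did not overlap for 30 of the 45, against 28.2% of all genes. Gbp2 stood at 31.1, 32.7 and 66.3 CPM in Ripk3-/- Mlkl-/- Ptpn6∆PMN and at 90.0 and 153 CPM in Mlkl-/- Ptpn6∆PMN, without overlap (log2 -1.49, SE 0.29, edgeR adjusted p = 0.0603). Eif2ak2 was at 38.7, 34.7 and 61.3 CPM against 63.2 and 110 CPM (log2 -0.95, SE 0.22, edgeR adjusted p = 0.0618). Stat2 (log2 -0.75, SE 0.17) and Irgm2 (log2 -0.79, SE 0.19) had edgeR adjusted p of 0.0607 and 0.0618. For Gbp2 and Eif2ak2 replicate 3 of Ripk3-/- Mlkl-/- Ptpn6∆PMN stood well above replicates 1 and 2 and closest to the other group. Without that replicate edgeR called 37 of the 45 and 30.1% of all genes, and the median was -1.10. Without Mlkl-/- Ptpn6∆PMN replicate 1 it called 4 of the 45 and 0.136% of all genes. Neutrophil markers summed to 63100, 82100 and 115000 CPM in replicates 1, 2 and 3 of Ripk3-/- Mlkl-/- Ptpn6∆PMN against 126000 to 142000 CPM. Of these markers 0 of 11 lay above 0 (median log2 change -0.64). Replicate 3, without which most calls arose, was thus the closest to the other group in these markers. Basophil and mast cell markers summed to 1000 to 1720 against 2190 to 2270 CPM. B cell markers summed to 1850, 1320 and 417 CPM in replicates 1, 2 and 3 of Ripk3-/- Mlkl-/- Ptpn6∆PMN against 417 to 453 CPM. All 12 of 12 lay above 0, with a median log2 change of 1.44. T and NK cell markers summed to 56.9 to 92.6 against 34.6 to 37.8 CPM, with 9 of 9 above 0 and a median log2 change of 0.93. The part of these lists in the result was not tested.

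Mlkl loss in Ripk3-/- Ptpn6∆PMN cells gave 0 called of the 45 in edgeR and in DESeq2, beside 0% and 0.0123% of all genes. In edgeR 0 of the 45 had an unadjusted p under 0.05, against 2.97% of all genes. The median log2 change was 0.18, and groups did not overlap for 1 of the 45, against 4.15% of all genes. Cmpk2 (log2 0.41), Iigp1 (-0.83), Irf7 (0.36) and Rsad2 (0.49) had the smallest p values, each with an edgeR adjusted p of 1. Without Ripk3-/- Mlkl-/- Ptpn6∆PMN replicate 3 this median was -0.11.

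Casp8 deletion in Mlkl-/- Ptpn6∆PMN cells, which keep Ripk3, placed all 45 estimates below 0. The median log2 change was -0.66, with a range of -1.06 to -0.26, against 0.04 over all genes. The median moved to -0.37 without Mlkl-/- Ptpn6∆PMN replicate 2 and to -0.94 without replicate 1. By edgeR 0 of the 45 were called, as were 0% of all genes, with 19 of the 45 and 9.35% of all genes under 0.05 before adjustment. DESeq2 called 3, beside 0.555% of all genes. Groups did not overlap for 37 of the 45, against 41% of all genes. Dtx3l stood at 81.9 and 79.8 CPM in Casp8∆PMN Mlkl-/- Ptpn6∆PMN and at 111 and 179 CPM in Mlkl-/- Ptpn6∆PMN (log2 -0.84, SE 0.19, edgeR adjusted p = 0.194). Parp14 stood at 112 and 115 CPM against 151 and 243 CPM (log2 -0.80, SE 0.21, edgeR adjusted p = 0.258). In both genes the Casp8-deleted pair was low and even, whereas the reference pair was apart. Irgm2 (log2 -0.77, SE 0.21) and Eif2ak2 (log2 -0.85, SE 0.25) had edgeR adjusted p of 0.265 and 0.291. Zbp1 was at 53.7 and 60.4 CPM against 80.1 and 129 CPM. These are the same 2 Mlkl-/- Ptpn6∆PMN libraries once more. Neutrophil markers summed to 134000 CPM in both Casp8-deleted libraries, within the range of the other group, and basophil and mast cell markers to 1640 to 1740 against 2190 to 2270 CPM. Erythroid markers summed to 752 to 3410 against 4190 to 6610 CPM, with 0 of 9 above 0 (median log2 change -1.41), and eosinophil markers to 21.2 to 26.2 against 32.6 to 59.5 CPM, with 0 of 4 above 0 (median -1.20). The part of these lists in the result was not tested.

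Without Ripk3, the same deletion gave estimates on both sides of 0. In Ripk3-/- Mlkl-/- Ptpn6∆PMN cells Casp8 deletion gave 0 called of the 45 in edgeR and in DESeq2, beside 0% and 0.00617% of all genes. In edgeR 0 of the 45 had an unadjusted p under 0.05, against 4.63% of all genes. The median was 0.09, with a range over the genes of -0.35 to 0.91. It was -0.18 without Ripk3-/- Mlkl-/- Casp8∆PMN Ptpn6∆PMN replicate 2 and 0.36 without Ripk3-/- Mlkl-/- Ptpn6∆PMN replicate 3. Groups did not overlap for 2 of the 45, against 14.7% of all genes. Gbp2 (log2 0.48), Dhx58 (0.34), Iigp1 (0.91) and Gbp3 (0.47) had the smallest p values, none with an edgeR adjusted p below 0.864. The difference between the 2 Casp8 effects lay above 0 for all 45 genes, with a median log2 value of 0.75 against -0.09 over all genes. That median was 0.42 without Ripk3-/- Mlkl-/- Casp8∆PMN Ptpn6∆PMN replicate 2, 0.45 without Mlkl-/- Ptpn6∆PMN replicate 2 and at most 1.04 with any other of these 9 libraries left out. Before adjustment 14 of the 45 differences had an edgeR p under 0.05, against 9.29% of all genes. By edgeR 0 of the 45 differences were called, beside 0.00617% of all genes, and by DESeq2 0, beside 0.0617%. That of Dtx3l was 1.04 (SE 0.26, edgeR adjusted p = 0.368), followed by Gbp2 at 1.37, Eif2ak2 at 1.04 and Irgm2 at 0.84, with edgeR adjusted p of 0.406, 0.414 and 0.441. For the difference between the 2 Casp8 effects, 0 of 12 B cell markers lay above 0 (median -0.81), 1 of 9 T and NK cell markers (-0.85) and 6 of 7 monocyte markers (0.97). The part of these lists in the result was not tested.

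Libraries of 1 genotype tended to be high or low for most of the genes at once. Replicate 3 was the lowest Ripk3-/- library for 43 of the 45 genes, against 29.0% of all genes, and replicate 1 was the lowest wild-type library for 34, against 31.2%. In Ripk3-/- Mlkl-/- Casp8∆PMN Ptpn6∆PMN replicate 2 was above replicate 1 for 43 of the 45, against 50.0% of all genes, with a median log2 gap of 0.40. In Casp8∆PMN Mlkl-/- Ptpn6∆PMN replicate 2 was above replicate 1 for 40, against 53.2%. The 45 genes are therefore not independent of each other, and counts of genes in one direction are read beside the spread of these libraries.

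The rest of the pathway was read from lists of ligands, receptors, signalling genes, inhibitors, sensors and further induced genes. Of 10 interferon ligand genes in the table, only Ifng passed the filter, with 208 estimated counts over all 25 libraries. Ifnb1 had 3 counts and Ifnk 4, and the other 7 had 0 in every library, which allows up to 0.00535 CPM over the 560681704 counts of all libraries. Receptor genes were not called on Ptpn6 deletion in Mlkl-/- (0 of 6 in edgeR and in DESeq2, 0 with an unadjusted p below 0.05, median log2 change 0.21). Ifnar1 stood at 145 ± 5.22 CPM in wild-type (SD, n = 3), 188 ± 20.7 in Mlkl-/- (SD, n = 3) and 171 ± 11.0 in Mlkl-/- Ptpn6∆PMN (SD, n = 2). Of 10 kinases and factors outside the 45, edgeR called 0 and DESeq2 1, 2 had an unadjusted p below 0.05 and the median was 0.01. Of the 6 inhibitors edgeR and DESeq2 called 0, 2 had an unadjusted p below 0.05 and the median was 0.17. Over all genes, 17.5% had an unadjusted edgeR p below 0.05 in this comparison.

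Among 14 upstream sensors and adaptors tested, 2 rose on Ptpn6 deletion in Mlkl-/-. The RNA editing enzyme Adar, whose long form is induced by interferon, rose by 0.77 in log2 units (SE 0.15, edgeR adjusted p = 0.0255), and the DNA exonuclease Trex1 by 1.00 (SE 0.25, edgeR adjusted p = 0.0494). Of 69 further induced genes tested, 10 rose and 0 fell, 58 lay above 0 and the median log2 change was 0.44. They included Helz2 (1.14, edgeR adjusted p = 0.0236), the ubiquitin ligase Trim25 (0.78, edgeR adjusted p = 0.0330) and Ifit1bl1 (1.92, edgeR adjusted p = 0.0328). The same 69 genes had a median of -0.05 on Ptpn6 deletion in Ripk3-/-, with 29 above 0, and of -0.18 in Ripk3-/- Mlkl-/-, with 10 above 0. In Ripk3-/- Mlkl-/- against wild-type 60 of the 69 lay above 0 with a median of 0.36. There edgeR called 0 of them and DESeq2 2, and 17 had an unadjusted edgeR p below 0.05, against 14.3% of all genes.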

How the data were processed

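Messenger RNA of mouse bone marrow neutrophils was sequenced as 100 bp pairs. The authors deposited estimated counts per gene. The submitters' processing notes list Salmon 0.14.1, the build GRCm38.p6 and DESeq2, and the step from transcripts to genes is not given in the sources used here. Counts, 24.9% of them not whole, were rounded. Groups came from the genotype labels. The 23 libraries of 9 groups were fitted together with edgeR 4.0.16 (R 4.3.3; TMM, filterByExpr with minimum count 10 and minimum total 15, quasi-likelihood F test, 14 residual degrees of freedom), with Benjamini-Hochberg adjustment over 16206 genes and a threshold of 0.05. The fit was tested on simulated data. The library with conflicting labels and the group of 1 library entered no test. Log2 CPM used a prior count of 2; totals ran from 21598063 to 23187557 counts per library.

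The genes and lists were chosen with earlier results of these data known. Called genes were named, or, where fewer than 4 were called, the 4 with the smallest p. Per-library values of Rsad2, Slfn5, Ifit1, Ifit2 and Isg15 were picked once those values were known. The alternatives tried were leaving out each library, a replicate block, a fit of the compared libraries alone, no filter on low counts, size factors from DESeq2, and the test of DESeq2 1.42.0. Exon windows shared between genes came from GENCODE on GRCm38, promoters from RefSeq on GRCm38.p6. The single-gene result of 1 further pathway gene is not reported here.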

Additional observations from a re-analysis of the deposited data

Results flagged for a closer look

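The title of 1 library places it with Ripk3-/- Mlkl-/-, whereas its genotype label reads Mlkl-/- Ptpn6∆PMN, so it entered no comparison. Ptpn6 was at 582 CPM in it, against 490 to 707 CPM in libraries with Ptpn6 intact and 120 to 314 CPM in deleted ones, and Ripk3 was at 0.0878 CPM, against 0 to 0.154 CPM in Ripk3-/- libraries and 2.51 to 10.5 CPM in the others. Its interferon-stimulated genes stood high, at a mean log2 CPM of 5.74 over the 45 genes against 4.90 to 5.17 in the wild-type libraries. In it 42 of the 45 genes lay above all 3 wild-type libraries, as did 30.4% of all genes tested. Stat2 was at 86.0 CPM, Zbp1 at 51.5 CPM and Ifit1 at 73.2 CPM.

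The single Casp8∆PMN Ptpn6∆PMN library, the only one labelled as inflamed, had a mean of 5.51, with 38 of the 45 genes above all wild-type libraries, as were 34.5% of all genes tested. Oas2 was at 392 CPM, Oas1a at 124 CPM and Gbp2 at 67.4 CPM, each above the 3 wild-type libraries. With 1 library there is no test, and inflammation and genotype cannot be told apart. Mlkl-/- Ptpn6∆PMN, at 5.85 and 6.45, lay above both of these libraries.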

How the results depend on the processing

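No called value changed direction. Of 194 alternative counts of called interferon-stimulated genes, 161 stayed within 1.5 times the value given above. For Ptpn6 deletion in Mlkl-/- (10 called) the count was 21 with no filter on low counts, 24 with only the libraries compared, 32 by DESeq2, and 0 to 12 when 1 library was left out. For Ripk3-/- Mlkl-/- against wild-type (2 called) these counts were 11, 26, 15 and 0 to 6. For the averaged Ptpn6 effect (0 called) they were 1 with no filter, 1 by DESeq2, and 0 to 1 when 1 library was left out, with 1 reached without Mlkl-/- Ptpn6∆PMN replicate 1 and without Ripk3-/- Mlkl-/- Ptpn6∆PMN replicate 1. For the dependence of the Ptpn6 effect on Ripk3 (0 called) DESeq2 gave 17 and leaving out a library 0 to 36, and for its dependence on background (0 called) 11 and 0 to 15, the highest counts coming without Ripk3-/- Mlkl-/- Ptpn6∆PMN replicate 3. For Mlkl-/- against wild-type (0 called) the count was 1 with only the libraries compared and 1 by DESeq2. For Ripk3 loss in Mlkl-/- Ptpn6∆PMN (0 called) it was 7 with no filter, 26 by DESeq2, and 0 to 37 when 1 library was left out. For Casp8 deletion in Mlkl-/- Ptpn6∆PMN (0 called) it was 3 by DESeq2. With only the libraries compared, 3.65% of all genes were called for Ptpn6 deletion in Mlkl-/-. The share was 5.49% for Ripk3-/- Mlkl-/- against wild-type and 6.06% for Mlkl-/- against wild-type. With no filter it was 0.698% for Ripk3-/- Mlkl-/- against wild-type, 1.42% for the averaged Ptpn6 effect and 1.2% for Ripk3 loss in Mlkl-/- Ptpn6∆PMN. The 15 called for background without Ripk3-/- Mlkl-/- Ptpn6∆PMN replicate 3 stood beside 0.21% of all genes. The cause of these differences was not tested. In fits that left a group with 1 library, its spread was taken from the remaining groups.

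Replicate numbers are shared between groups, but in none of the comparisons with 3 common numbers did same-numbered libraries deviate together at a correlation above 0.1 for all 3, so the numbers were not taken to pair the samples. With the replicate block the count was 12 for Ptpn6 deletion in Mlkl-/-, beside 2.05% of all genes. It was 1 for Ripk3-/- Mlkl-/- against wild-type, beside 0.623%, and 5 for Ripk3 loss in Mlkl-/- Ptpn6∆PMN, beside 2.66%. The other counts were unchanged at 0.

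Of 836 alternative values of the named genes, 730 kept their direction and their side of the threshold, 55 lost the call, 51 gained it and 0 reversed. How far counting depth limits genes of low level, such as Ifi44, Iigp1 and Mx2, was not tested.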
